A study of Homo sapiens with 12 samples.

Results

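The transcriptomes of SDS22-degron cells and of the parental line they were made from were compared after both lines had received the degradation treatment. The comparison takes every library labelled as treated, which is 6 of the 12 libraries of the study: 3 of treated SDS22-degron cells against 3 of treated parental cells. HCT116 is a human colorectal carcinoma cell line. The parental line, HCT116 Tet-OsTIR1, carries a doxycycline-inducible OsTIR1 (an auxin-receptor subunit of a ubiquitin ligase) at the AAVS1 locus, and the degron line shares it. In the degron line the PPP1R7 alleles, which encode SDS22, were in addition tagged at the 3′ end with a mini auxin-inducible degron and mClover, a green fluorescent protein, by CRISPR/Cas9 and a resistance cassette, and the line was grown from an isolated colony. All 6 libraries come from cells that received 2 µg/ml doxycycline (Dox) and 500 µM of the auxin indole-3-acetic acid (IAA) for 48 h. The agents are therefore the same on both sides. The groups differ in the tag, in what came with the colony and in SDS22 protein. The paper reports that Dox/IAA made the tagged SDS22 undetectable in the degron line and left SDS22 of the parental line unaffected. RNA libraries do not measure that protein. The other 6 libraries, 3 untreated per line, are used only to show how far a difference was already there without Dox/IAA. The labels name the replicates as biological, and the design text as independent experiments.

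SDS22 is an early-evolved regulatory partner of protein phosphatase-1 (PP1), a Ser/Thr phosphatase with interchangeable regulatory subunits known as RIPPOs (Regulatory-Interactors-of-Protein-Phosphatase-One). It binds newly made PP1 together with Inhibitor-3, and the ATPase p97/VCP removes both so that PP1 can join other RIPPOs. PP1 holoenzymes reverse mitotic phosphorylations, silence the spindle assembly checkpoint (SAC), flatten cells after division and act on transcription, metabolism and the stress response. Cell cycle genes are commonly controlled in successive waves, through E2F sites in promoters of genes of the G1/S transition and through the cell cycle genes homology region (CHR) in promoters of genes of G2/M. Both sites can be bound by the repressive DREAM complex, which forms when p53 raises the CDK inhibitor p21.

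The guide used to tag PPP1R7 is shown because it set the cut at which the degron line was tagged. It is printed 5′ to 3′ with the adjoining PAM of the reference sequence in capitals:
PPP1R7 guide: agatcgatgccacgttcgtcAGG
The 20 bases matched GRCh37 once, on chromosome 2 at 242122210 to 242122229 of the plus strand, in exon 10 and the coding sequence of PPP1R7, and the stop codon lies at 242122236 to 242122238. From each of 3 lists, members were considered if their 250 bases before the start hold the site of that list. Some members were left out by the chromosome they lie on, so a member with a smaller p may also hold the site. Of the members considered, the 2 with the smallest p were taken per list. Promoters of these 6 genes follow. They come from RefSeq (GRCh38.p14), are written 5′ to 3′ on the strand of the gene and end at the base before the start; capitals mark an E2F site in CDT1 and CDC25A, a CHR in PLK1 and PRC1, and interferon-stimulated response elements (ISRE) in IFIT1 and IFI6.
CDT1, chr16:88803539-88803788, plus strand: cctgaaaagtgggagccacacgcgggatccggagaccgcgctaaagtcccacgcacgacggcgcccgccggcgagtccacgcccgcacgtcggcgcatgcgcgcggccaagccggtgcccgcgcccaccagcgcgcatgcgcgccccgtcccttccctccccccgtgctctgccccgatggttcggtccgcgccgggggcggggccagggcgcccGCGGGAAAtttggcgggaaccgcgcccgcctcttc
CDC25A, chr3:48188418-48188667, minus strand: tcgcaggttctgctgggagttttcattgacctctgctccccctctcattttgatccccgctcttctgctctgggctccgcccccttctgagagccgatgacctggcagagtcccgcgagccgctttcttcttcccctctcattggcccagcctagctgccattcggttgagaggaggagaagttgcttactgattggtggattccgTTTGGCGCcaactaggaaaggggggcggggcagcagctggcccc
PLK1, chr16:23678639-23678888, plus strand: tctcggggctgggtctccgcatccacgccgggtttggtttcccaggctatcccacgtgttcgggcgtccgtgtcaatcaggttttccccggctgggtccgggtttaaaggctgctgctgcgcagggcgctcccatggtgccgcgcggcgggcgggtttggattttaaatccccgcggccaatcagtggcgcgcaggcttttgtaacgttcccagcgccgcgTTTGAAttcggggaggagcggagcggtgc
PRC1, chr15:90994536-90994785, minus strand: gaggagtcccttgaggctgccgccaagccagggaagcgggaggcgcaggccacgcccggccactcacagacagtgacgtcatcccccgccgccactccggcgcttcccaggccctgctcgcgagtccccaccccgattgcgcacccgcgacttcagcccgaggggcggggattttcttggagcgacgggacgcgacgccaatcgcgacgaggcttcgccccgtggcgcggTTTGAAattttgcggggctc
IFIT1, chr10:89392373-89392622, plus strand: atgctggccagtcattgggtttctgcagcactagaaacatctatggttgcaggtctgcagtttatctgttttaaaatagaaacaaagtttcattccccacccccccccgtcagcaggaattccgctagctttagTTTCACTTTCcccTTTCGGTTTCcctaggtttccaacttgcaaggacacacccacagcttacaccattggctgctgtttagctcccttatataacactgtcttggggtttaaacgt
IFI6, chr1:27672193-27672442, minus strand: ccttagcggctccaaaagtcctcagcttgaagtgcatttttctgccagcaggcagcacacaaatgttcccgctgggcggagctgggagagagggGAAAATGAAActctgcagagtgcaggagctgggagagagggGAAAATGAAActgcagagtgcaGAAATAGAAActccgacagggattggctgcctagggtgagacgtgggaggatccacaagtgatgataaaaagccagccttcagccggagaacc

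The treated libraries held 12133915 to 13336834 reads counted on genes, and the untreated ones 12218784 to 14657508. Levels are given as CPM, the reads of a gene scaled to a common library size after TMM normalisation. Treated parental replicate 2 stood furthest from its group: a chi-square per degree of freedom over genes was 9.73 and 8.54 against the other replicates of treated parental cells, 3.26 between those, and 5.38 to 7.24 within treated SDS22-degron cells. All 10 epithelial identity markers of HCT116 were measured, and their summed level ran from 3151 to 3749 CPM in treated parental and from 3884 to 4421 CPM in treated SDS22-degron libraries. KRT19, an epithelial keratin, was at 789.9, 711 and 806 CPM in treated parental and at 967, 1107 and 1245 CPM in treated SDS22-degron cells (log2 fold change 0.52 ± 0.09 SE, adjusted p = 1.91e-04). Of 7 fibroblast, 7 leukocyte and 6 endothelial markers only COL1A1 and VWF passed the filter on low counts, with log2 fold changes of 0.47 and 1.68, and both were called higher. The call of COL1A1 was lost without treated parental replicate 1 or treated SDS22-degron replicate 2 or 3. All 7 fibroblast markers, of which 4 were at 0 in all treated libraries, together summed to 17.3 to 22.9 CPM in treated parental and 21.3 to 31.8 CPM in treated SDS22-degron libraries. The leukocyte markers summed to at most 0.711 and 0.988 CPM, with 2 of 7 at 0 in all treated libraries, and the endothelial ones to at most 0.708 and 1.89 CPM, with 2 of 6 at 0. The part of such cells in the differences below was not tested.

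PPP1R7 is targeted as a protein in this design, so its mRNA is no check of the degradation, and the mRNA did not pass the test. It was at 44.2, 50.01 and 42.1 CPM in the treated parental and at 48.1, 44.4 and 51.1 CPM in the treated SDS22-degron libraries (log2 fold change 0.08 ± 0.09 SE, adjusted p = 0.513, edgeR quasi-likelihood test), and at 40.1, 47.7 and 43.2 and 40.6, 45.7 and 45.8 CPM in the untreated ones. The groups overlapped in both comparisons. The gene overlaps PASK on the chromosome, and the counts cannot tell a tagged from an untagged transcript.

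Between the treated lines 16657 genes were tested. At an adjusted p under 0.05, 3633 genes (21.8%) were higher and 3853 (23.1%) lower in treated SDS22-degron cells. The counts of list members called between the treated lines, given below, are to be read against these shares. With the cut-off the study used for differentially expressed genes (DEGs), an unadjusted p under 0.05 and a log2 fold change beyond 1 in size, 542 genes (3.25%) were higher and 563 (3.38%) lower. Most differences were small: the median size of the log2 fold change was 0.28 over all tested genes, 51.4% of the genes called at the adjusted p differed by less than 0.5, and 149 genes differed by more than 2, of which 105 were higher and 44 lower. For 52.9% of tested genes the 3 libraries of one line lay wholly above or below those of the other. DEGs that were higher had low levels, with a median of 1.68 CPM in treated parental and 5.24 CPM in treated SDS22-degron cells. DEGs that were lower had medians of 12.1 and 4.33 CPM in the same order. When a test against a log2 fold change of 1 itself was used (glmTreat, adjusted p under 0.05), 140 genes were higher and 94 lower.

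**Figure D1:**
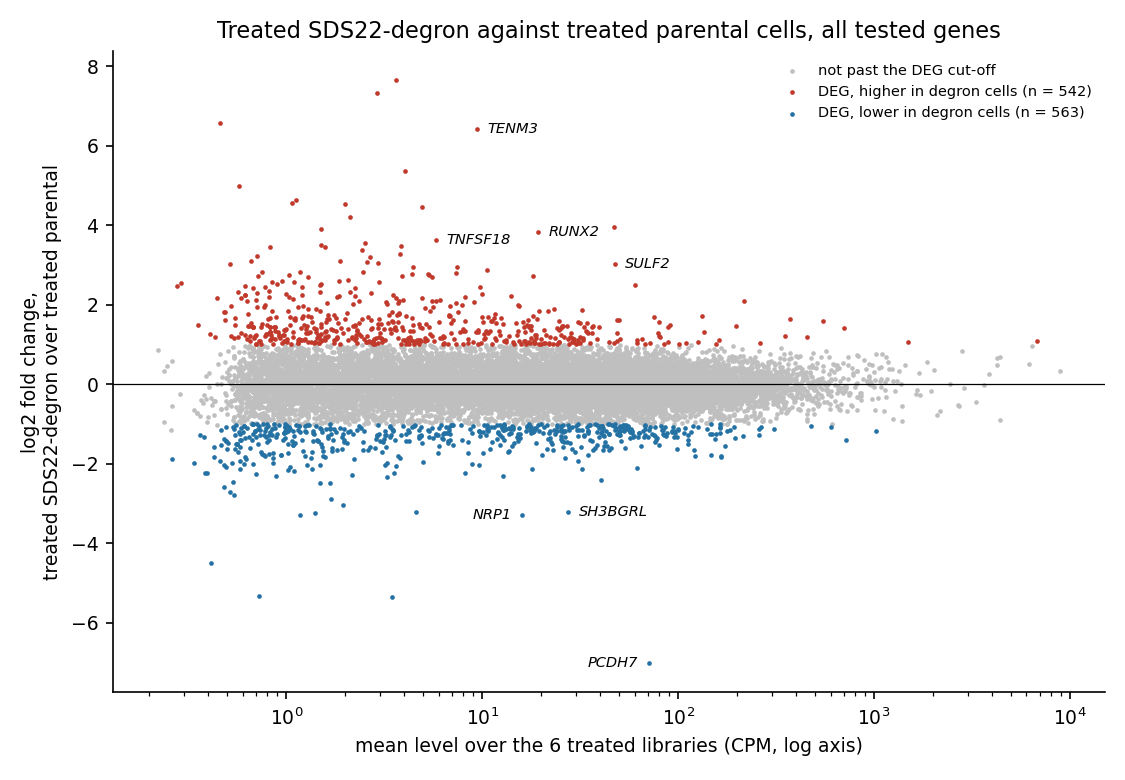
Each point is 1 of the 16657 tested genes, with its mean level over the 6 treated libraries (CPM, log axis) against its log2 fold change between the treated lines; red and blue points are the 542 higher and 563 lower DEGs, and labels mark the genes described among the 10 highest and 10 lowest that differ by more than 3 on the log2 scale. PCDH7 at -7.02 is the lowest point, and TENM3 at 6.43 the highest of the labelled ones.

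More of the higher than of the lower genes differed in the same direction without treatment, and more of the lower ones differed further with it. Between the untreated lines, in libraries that the treated comparison does not use, 2198 genes (13.2%) were higher and 2500 (15%) lower in degron cells at an adjusted p under 0.05, and 473 (2.84%) and 216 (1.3%) at the DEG cut-off. The 542 higher DEGs had a median log2 fold change of 1.37 between the treated and 1.00 between the untreated lines, while the 563 lower DEGs had -1.25 and -0.35. Of all 1105 DEGs, 32.8% were DEGs of the same sign in untreated cells too, and 36.8% were without treated parental replicate 2. The interaction, which tests whether the difference between the lines itself differed between treated and untreated cells, called 1005 genes (6.03%) with a more positive and 1391 (8.35%) with a more negative difference in treated cells. Among the higher DEGs 113 of 542, and among the lower DEGs 300 of 563, were called by the interaction in the direction of their difference. Because the interaction uses the treated libraries again, those counts describe the DEGs and are no separate evidence for them. At the adjusted p, 288 higher DEGs were also higher without treatment and had no call in the interaction, against 133 of the lower ones. In contrast, 61 higher and 208 lower DEGs had no call between the untreated lines and a call in the interaction.

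**Figure D2:**
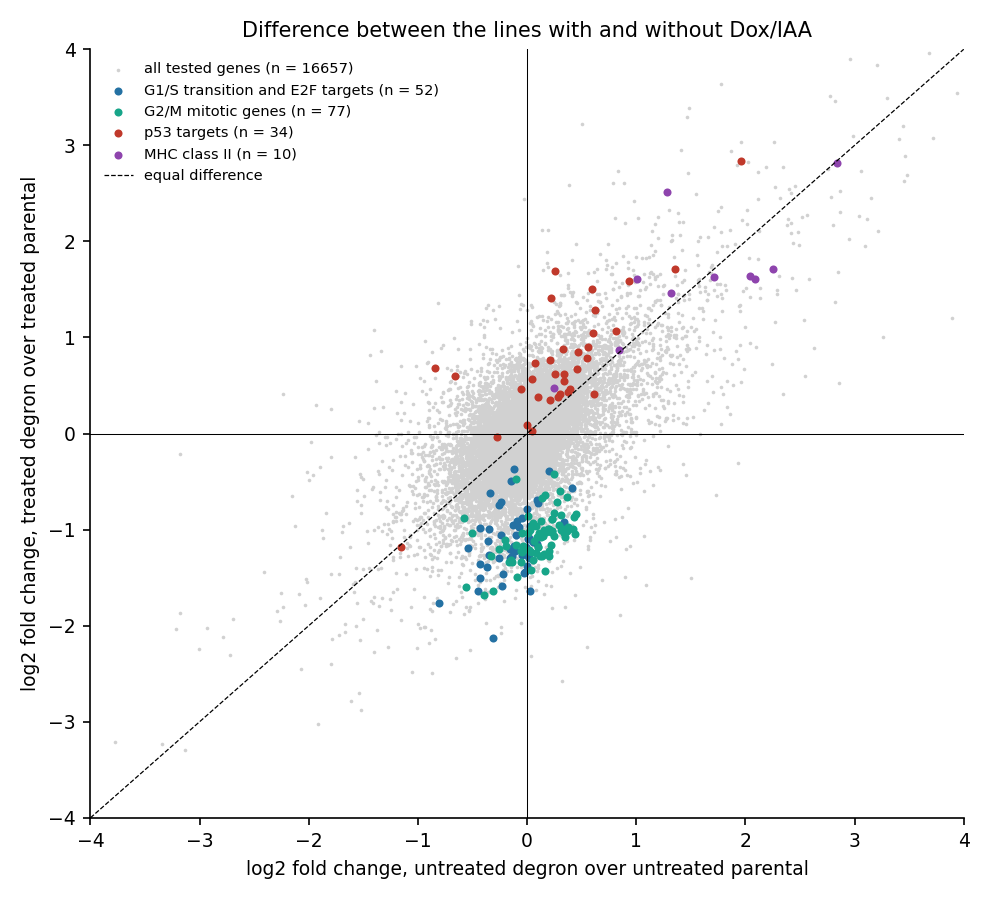
Each grey point is a tested gene, with its log2 fold change between the untreated lines on the x axis and between the treated lines on the y axis; 21 genes beyond 4 on either axis are not drawn, and the dashed line marks equal differences. G1/S genes (52) and G2/M genes (77) lie below 0 on the y axis around 0 on the x axis, MHC class II genes (10) lie near the dashed line, and most p53 targets (34) lie above 0 on the y axis.

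The widest differences belonged mostly to genes that differed between the lines with or without treatment. The genes described here come from the 10 highest and 10 lowest among genes with a named symbol, a mean of at least 5 CPM over the treated libraries, an adjusted p under 0.05 and no overlap between the treated lines. PCDH7, a protocadherin of cell contacts, was at 142, 121 and 159 CPM in treated parental and at 1.297, 1.01 and 0.906 CPM in treated SDS22-degron cells (log2 fold change -7.02 ± 0.15 SE, adjusted p = 4.13e-16), and at 173, 151 and 163 against 1.68, 1.65 and 1.21 CPM without Dox/IAA. All 6 parental libraries were far above all 6 degron libraries. TENM3, a teneurin of the cell surface, went the other way, at 0.150, 0.237 and 0.236 CPM in treated parental and 16.6, 16.8 and 22.6 CPM in treated SDS22-degron cells. Its parental values rest on 2, 3 and 3 reads, so the ratio of the summed reads is 89.7 with an exact 95% interval of 45.3 to 209 that covers counting error only. NRP1, a co-receptor for semaphorins and VEGF, was at 27.8, 31.6 and 27.8 against 1.75, 4.26 and 2.88 CPM (log2 fold change -3.29 ± 0.17 SE), and HNF4A, a transcription factor of gut and liver epithelium that is under 5 CPM on average and was named for its list, at 7.27, 7.98 and 9.68 against 0.992, 0.929 and 0.741 CPM (-3.21 ± 0.21 SE). Both were also lower between the untreated lines (-3.13 ± 0.18 and -3.77 ± 0.24, respectively), and neither was called by the interaction.

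Of the other high genes, RUNX2, a transcription factor of bone formation, was 14.3-fold higher at 32.6, 38.8 and 36.8 CPM, GLIS3 7.39-fold, HMCN1, which encodes an extracellular matrix protein, 6.96-fold, ALOX5, the enzyme that starts leukotriene synthesis, 6.86-fold, and WNT6 6.72-fold. None of these 5 genes was called by the interaction, and each was also higher between the untreated lines, by 3.21, 3.47, 1.93, 2.19 and 2.76 on the log2 scale in the order given. SULF2, which removes sulfate from heparan sulfate chains outside the cell, was at 8.10, 12.8 and 10.1 CPM in treated parental and 74.7, 101 and 77.3 CPM in treated SDS22-degron cells. Its difference was 3.03 ± 0.14 SE in treated and 1.96 ± 0.15 SE in untreated cells (interaction 1.07 ± 0.21 SE, adjusted p = 0.00212). TNFSF18, a TNF family ligand, was at 0.600, 0.632 and 1.34 against 8.77, 10.5 and 13.01 CPM with treatment (12.5-fold) and at 16.2, 12.7 and 18.95 against 49.2, 49.2 and 65.6 CPM without, so that both lines were lower under Dox/IAA. ARRDC4, an arrestin-like protein, was at 2.25, 1.98 and 0.865 against 14.6, 15.1 and 9.80 CPM, 7.72-fold higher, and both genes were called by the interaction (adjusted p = 0.00208 and 0.0137).

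Of the other low genes, SH3BGRL was 9.20-fold lower, at 6.18, 5.58 and 4.37 CPM, and was lower still between the untreated lines (log2 fold change -4.33 ± 0.16 SE). ARMC4 was 4.93-fold lower, MYH15, a myosin heavy chain, 4.39-fold, ACSL5, which activates long-chain fatty acids, 4.28-fold, and SLC37A2, a sugar-phosphate transporter, 4.00-fold. These 4 were lower without treatment as well, by log2 fold changes of -2.72, -1.78, -1.72 and -1.57. NAV3, at 11.9, 14.8 and 13.7 against 3.13, 2.01 and 3.46 CPM, and TMPOP2, a processed transcript at 13.2, 17.8 and 15.3 against 3.74, 3.56 and 4.12 CPM, had a larger difference in treated than in untreated cells (interaction -1.22 ± 0.31 and -1.08 ± 0.19 SE). E2F8, a repressive E2F factor that is itself an E2F target, was the one of the 10 lowest with no call between the untreated lines. It was at 27.6, 34.6 and 25.8 CPM in treated parental and 8.85, 5.50 and 5.77 CPM in treated SDS22-degron cells (4.36-fold lower, adjusted p = 1.46e-08), and at 25.1, 33.6 and 29.1 and 24.9, 22.1 and 23.7 CPM without treatment (adjusted p = 0.096).

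Genes that differed between the treated lines and hardly between the untreated ones were mainly lower. Under the same rule for naming genes, 1215 also had a call in the interaction and an untreated log2 fold change under 0.25 in size, and of these 769 were lower and 446 higher. GINS4, a subunit of the replicative helicase, was at 26.2, 44.8 and 33.0 CPM in treated parental against 11.1, 11.7 and 10.5 CPM in treated SDS22-degron cells (3.12-fold lower, adjusted p = 2.49e-07), and DSCC1, part of a clamp loader for sister chromatid cohesion, at 39.3, 58.0 and 46.1 against 18.6, 14.8 and 14.3 CPM. PKMYT1, the membrane kinase that inhibits CDK1, was 2.93-fold lower, and ARHGEF39, a guanine nucleotide exchange factor, 3.09-fold. CDC20, which activates the anaphase-promoting complex and is a target of the SAC, was at 143, 207 and 147 against 62.1, 59.5 and 54.9 CPM (2.81-fold lower). Its processed pseudogene CDC20P1 was at 63.4, 81.8 and 60.5 against 23.3, 22.1 and 22.2 CPM, and reads of near-identical copies may be split between the pair. NRGN, a calmodulin-binding protein of neurons, and B4GALNT1, the enzyme of GM2 and GD2 ganglioside synthesis, are in none of the cell cycle lists and differed by -1.58 ± 0.09 and -1.53 ± 0.09 SE. In treated parental replicate 2 CDC20, GINS4, DSCC1, PKMYT1 and ARHGEF39 were each above the other replicates of their group, and each stayed called without that library.

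In the higher direction, GDF15, a stress-induced cytokine of the TGF-beta family, was at 366, 252 and 532 CPM in treated parental and at 871, 1026 and 1163 CPM in treated SDS22-degron cells (2.66-fold higher, log2 fold change 1.41 ± 0.20 SE, adjusted p = 2.01e-05). Without treatment it was at 661, 381 and 439 and 537, 585 and 603 CPM and the groups overlapped. SAMD11 was 2.55-fold higher, at 11.3, 14.2 and 21.9 CPM, ERV3-1, an endogenous retroviral envelope gene that overlaps ZNF117, 2.53-fold, TOM1L2, an endosomal sorting protein, 2.33-fold and YPEL3 2.25-fold. Their untreated log2 fold changes were -0.06, -0.04, 0.09 and 0.18.

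Among genes that met the symbol, level, p and overlap limits for naming, 127 differed between the lines in opposite directions with and without treatment. Each difference was at an adjusted p under 0.05, and 70 of these genes were higher and 57 lower in treated SDS22-degron cells. MEF2C, a transcription factor of muscle and nerve, was at 11.2, 6.95 and 11.2 against 18.99, 15.7 and 24.1 CPM with treatment and at 13.9, 12.8 and 13.2 against 5.91, 8.80 and 10.5 CPM without. SLFN5, an interferon-inducible Schlafen protein, was at 79.9, 57.3 and 70.9 against 112, 123 and 123 CPM with treatment and at 82.0, 55.0 and 79.7 against 52.1, 45.4 and 53.4 CPM without, and SELENOP, the selenium carrier, had log2 fold changes of 0.73 ± 0.19 and -0.92 ± 0.26 SE. Named genes with the reverse pattern were XRCC2, BUB1 and MKI67. XRCC2, a gene of DNA repair by homologous recombination, was at 20.99, 24.3 and 19.1 against 9.69, 8.67 and 8.89 CPM with and at 26.2, 29.6 and 23.7 against 32.9, 32.9 and 30.4 CPM without treatment. BUB1, a SAC kinase, had log2 fold changes of -1.07 ± 0.13 and 0.34 ± 0.12 SE, and MKI67, the proliferation marker Ki-67 and itself a RIPPO, of -1.04 ± 0.11 and 0.34 ± 0.11 SE.

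**Figure D3:**
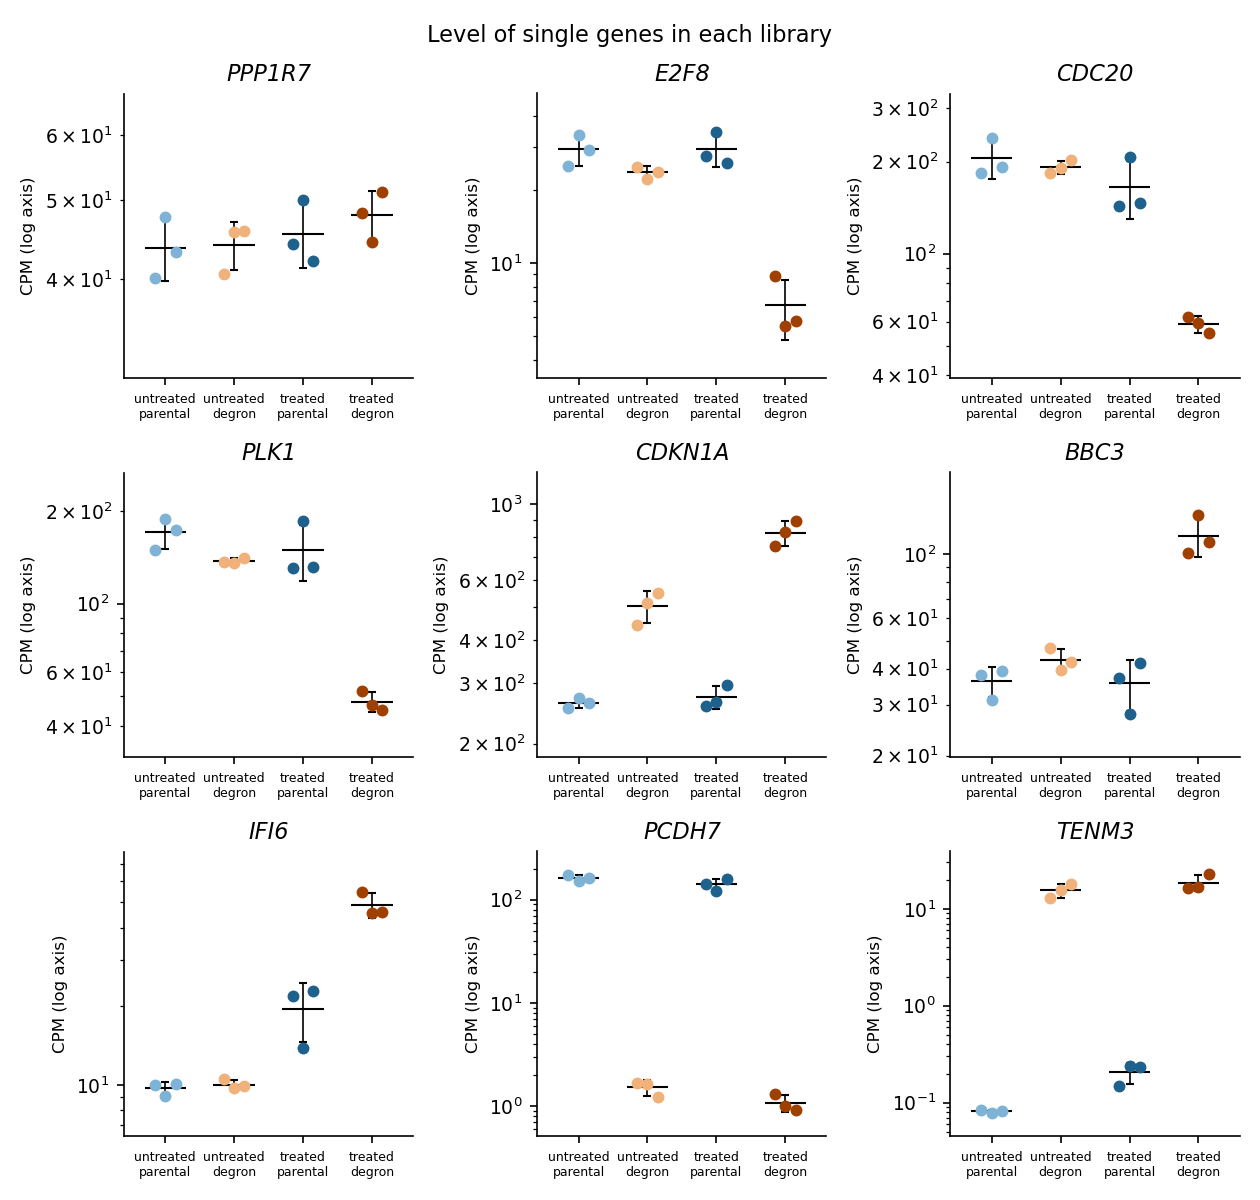
Points are the CPM of each library (log axis, scaled per gene) for 9 genes in the 4 groups of 3 libraries; horizontal lines are group means and bars the SD. PPP1R7 overlaps in all groups, E2F8, CDC20 and PLK1 are low in treated SDS22-degron cells alone, CDKN1A is higher in degron cells in both conditions and highest when treated, and PCDH7 and TENM3 separate the lines in both conditions.

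Every gene of the G1/S and G2/M lists was lower. These lists, like the others here, were written with earlier results of these data known. Their counts therefore describe the listed genes and are no independent evidence. All 52 listed genes of the G1/S transition and of E2F targets were tested, all 52 were lower in treated SDS22-degron cells at an adjusted p under 0.05 (against 23.1% of all tested genes), 34 passed the DEG cut-off, and the log2 fold changes ran from -2.12 to -0.37 with a median of -1.14. The list summed to 3943 to 4910 CPM in treated parental and to 1902 to 2399 CPM in treated SDS22-degron libraries. The median between the untreated lines was -0.11, with 2 genes called higher and 12 lower there, and 48 of 52 were called lower by the interaction. CDT1, which licenses replication origins, was at 123, 144 and 122 CPM in treated parental and 60.2, 56.0 and 54.3 CPM in treated SDS22-degron cells (log2 fold change -1.19 ± 0.07 SE, adjusted p = 1.21e-09). CCNE2, the cyclin E2 partner of CDK2, was 3.41-fold lower, at 30.4, 35.3 and 28.6 against 11.2, 8.13 and 8.24 CPM. Both were also lower between the untreated lines, by -0.54 ± 0.07 and -0.81 ± 0.13 SE. ATAD2, a chromatin ATPase and E2F target, was at 285, 340.3 and 289 against 143, 107 and 122 CPM (2.45-fold lower) and MYBL2, the B-Myb factor that acts in both waves, at 102, 128 and 105 against 49.3, 32.4 and 41.0 CPM (2.73-fold lower).

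All 77 listed genes of G2/M were tested and lower as well, 52 of them past the DEG cut-off, with log2 fold changes from -1.68 to -0.42 and a median of -1.04. Their summed level was 8447 to 11298.5 CPM in treated parental and 4456 to 5189 CPM in treated SDS22-degron libraries. Between the untreated lines the median was 0.13, with 14 genes called higher and 7 lower, and the interaction called 76 of 77 lower. PLK1, the Polo kinase of mitotic entry and exit, was at 131, 185 and 132 CPM in treated parental and 51.9, 46.8 and 45.1 CPM in treated SDS22-degron cells (3.11-fold lower, adjusted p = 7.22e-09). PRC1, which bundles microtubules of the central spindle, was at 204, 270.2 and 216 against 107, 94.9 and 92.8 CPM, CENPF, a kinetochore protein, at 238, 348 and 256 against 116, 115 and 102 CPM, and KNSTRN, of the kinetochore and spindle, at 58.3, 68.3 and 60.5 against 28.3, 25.6 and 25.0 CPM. No library of one line overlapped the other for these 4 genes. FOXM1, the transcription factor of the G2/M wave, was 2.11-fold lower, at 139, 207 and 167 against 85.0, 77.3 and 81.3 CPM, and had no call between the untreated lines (0.09 ± 0.10 SE). Treated parental replicate 2 had the highest PLK1, PRC1, CENPF and FOXM1 of its group. Without it the medians were -0.99 for G1/S and -0.90 for G2/M genes, and all 52 and 77 genes remained called lower, as they did under all 17 alternatives run for this comparison. In bulk libraries, fewer cells in a phase and less of these mRNAs per cell cannot be told apart.

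The lists differed in the sites of their promoters, counted in 300 bases from 250 before to 50 after the start on both strands. Promoters were matched for 10020 of the 16657 tested genes. An E2F site (TTTCCCGC, TTTGGCGC, TTTCGCGC or TTTGCCGC) was in 19 of 44 G1/S promoters (43.2%), in 4 of 66 G2/M promoters (6.06%) and in 5.39% of all promoters. A CHR (TTTGAA) was in 2 of 44 G1/S promoters (4.55%), in 44 of 66 G2/M promoters (66.7%) and in 9.40% of all. CCAAT, which the CHR and E2F letters do not contain, was in 56.8% of G1/S, 71.2% of G2/M and 36.5% of all promoters. In the printed sequences the E2F site of CDT1 begins 35 bases and that of CDC25A 44 bases before the start, and the CHR of PLK1 29 and that of PRC1 20 bases before it. A match of letters describes these windows and was not tested for binding.

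The genes around these waves moved less evenly. Of 14 tested G1 cyclins, CDKs and pocket protein genes 8 were lower and 1 higher (median -0.36). CDK2 was at 115, 136 and 122 against 77.1, 65.2 and 69.5 CPM and CDK4 at 182, 177 and 173 against 127, 115 and 110.4 CPM, while CCND1, cyclin D1, was the one higher gene at 823, 768 and 847 against 1263, 1411 and 1473 CPM. CCND1 was also higher between the untreated lines (0.77 ± 0.08 and 0.71 ± 0.08 SE), with no call in the interaction. E2F4, the E2F of the DREAM complex, was at 118, 119 and 125 against 63.2, 74.3 and 69.6 CPM, and 8 of 13 DREAM and MuvB genes were lower and 1 higher. Of 8 tested CDK inhibitors 2 were higher and 3 lower, and 1 was higher without treated parental replicate 2 or treated SDS22-degron replicate 1. CDKN1A, which encodes p21, was at 258, 265 and 297 CPM in treated parental and 753, 829 and 891 CPM in treated SDS22-degron cells, 3.01-fold higher (log2 fold change 1.59 ± 0.08 SE, adjusted p = 2.48e-10). Without treatment it was at 254, 272 and 263 and 445, 516 and 551 CPM, and the difference was larger with treatment (interaction 0.65 ± 0.12 SE, adjusted p = 0.0011). CDKN2A was at 59.5, 53.6 and 53.7 against 38.7, 36.4 and 36.8 CPM and CDKN2C at 10.0, 13.5 and 9.05 against 8.08, 5.58 and 7.41 CPM. CDKN3, a phosphatase that acts on CDK2, was at 18.1, 25.1 and 18.4 against 15.9, 15.6 and 13.7 CPM (adjusted p = 0.016), a call that was lost without treated parental replicate 2 (log2 fold change -0.26, adjusted p = 0.142) or without treated SDS22-degron replicate 3 (-0.38, adjusted p = 0.0730). Between the untreated lines the log2 fold change of CDKN3 went the other way, at 0.86 (interaction -1.30, adjusted p = 2.29e-04).

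Tubulin and histone genes, which are made with division, did not move as single blocks. Of 14 tested tubulin genes 8 were lower and 1 higher. TUBB, at 1271, 1649 and 1361 against 693, 563 and 637 CPM, and TUBA1B, at 521, 733 and 527 against 369, 285 and 282 CPM, are abundant isotypes of dividing cells and were 2.26-fold and 1.90-fold lower. Most replication-dependent histone mRNAs have no poly-A tail and are missed by poly-A selection. Of 90 histone genes 25 passed the filter, and 8 were higher and 4 lower. H2AFZ, a replacement variant with a poly-A tail, was at 243, 309.9 and 252 against 164, 142 and 129 CPM. HIST2H2BE, which can give polyadenylated mRNA, was at 3.30, 2.61 and 3.30 against 8.69, 10.1 and 12.4 CPM and also higher without treatment (1.69 ± 0.25 SE). Both families hold near-identical copies between which reads can be split. The median of the histone genes was 0.40 between the treated and 0.40 between the untreated lines, where 9 were called higher and 3 lower. The interaction called 0 higher and 5 lower. The treated median was 0.14 without treated parental replicate 1, 0.25 without its replicate 3, and 0.29, 0.20 and 0.18 without treated SDS22-degron replicates 1, 2 and 3.

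Targets of p53 were mostly higher. HCT116 cells carry wild-type p53, which activates arrest, repair and apoptosis genes. Of 34 tested targets 29 were higher (against 21.8% of all tested genes) and 1 lower, 9 and 1 of them past the DEG cut-off, with a median of 0.65 between the treated and 0.32 between the untreated lines. The list summed to 2356 to 2823 CPM in treated parental and to 4698 to 5075 CPM in treated SDS22-degron libraries, and 11 members were called higher by the interaction. PLK2, a Polo-like kinase induced by p53, was at 55.2, 56.8 and 73.7 against 205, 196 and 205 CPM (3.27-fold higher) and was also higher between the untreated lines (1.36 ± 0.08 SE, interaction adjusted p = 0.0613). TP53INP1, a stress protein that promotes p53 activity, was at 47.0, 39.9 and 55.0 against 134, 132 and 135 CPM with and 34.9, 38.3 and 36.0 against 55.8, 57.3 and 52.3 CPM without treatment. PHLDA3, an inhibitor of AKT, was 2.44-fold higher, at 27.3, 28.4 and 29.5 against 66.8, 66.1 and 74.8 CPM. For both the treated difference was the larger one (interaction 0.90 ± 0.13 and 0.66 ± 0.12 SE).

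The BCL2 family holds promoters and inhibitors of apoptosis. Of 15 tested genes 6 were higher and 1 lower (3 without treated SDS22-degron replicate 3) and the median was 0.03. BBC3, the p53-induced BH3-only protein PUMA, was at 37.3, 27.8 and 41.9 CPM in treated parental and 101, 136 and 109.8 CPM in treated SDS22-degron cells (3.24-fold higher, adjusted p = 1.65e-08) and at 37.9, 31.3 and 39.2 and 47.2, 39.5 and 42.4 CPM without treatment. HRK, another BH3-only protein, was at 1.4995, 1.82 and 1.73 against 6.18, 6.43 and 5.02 CPM and BMF, likewise BH3-only, at 1.72, 1.42 and 2.20 against 4.88, 9.83 and 9.64 CPM. BAX, an effector of the mitochondrial pathway, was at 62.7, 57.5 and 57.0 against 102, 109 and 94.0 CPM and was higher in untreated degron cells too (0.55 ± 0.07 SE). Of 18 tested TNF ligands and receptors 8 were higher and 3 lower. TNFRSF10B, the death receptor DR5, was at 268, 231 and 269.6 against 438, 434 and 432 CPM and its decoy relative TNFRSF10C at 6.75, 8.06 and 8.02 against 20.2, 25.0 and 21.2 CPM. NGFR was 2.73-fold higher, at 50.6, 48.9 and 60.6 CPM, and also higher without treatment (1.66 ± 0.15 SE).

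Other stress programmes had called genes in both directions. Of 31 tested genes of the integrated stress response, which ATF4 drives and a PP1 holoenzyme ends, 9 were higher (29.0%) and 6 lower (19.4%), near the 21.8% and 23.1% of all tested genes. The number higher ranged from 4 without treated SDS22-degron replicate 1 and 5 without treated parental replicate 2 to 14 with no filter on low counts. The median of 0.25 was 0.13 without treated parental replicate 2. ATF3, an ATF factor of this pathway, was at 13.7, 10.3 and 17.5 against 47.1, 41.6 and 63.2 CPM (3.65-fold higher), whereas ATF5 was lower at 53.6, 46.1 and 41.5 against 32.5, 25.9 and 24.6 CPM and PHGDH, the first enzyme of serine synthesis, at 139, 148 and 125 against 91.2, 78.8 and 68.1 CPM. PHGDH was lower still between the untreated lines (-1.28 ± 0.09 SE). Of 24 genes of the unfolded protein response 4 were higher (16.7%) and 5 lower (20.8%), no more than over all tested genes, or 8 higher with the replicate number as a block in the 6 treated libraries. MANF, at 88.7, 102 and 85.0 against 58.4, 61.5 and 54.9 CPM, and the chaperone CALR, at 954, 1046 and 925 against 749, 774 and 694 CPM, were among the lower ones, also without treatment (-0.71 ± 0.15 and -0.36 ± 0.10 SE). Of 22 heat shock protein genes 10 were lower and 1 higher (median -0.29, or -0.14 without treated parental replicate 2). The cytosolic chaperone HSP90AB1 was at 2504, 2897 and 2543 against 1739, 1656 and 1623 CPM and the mitochondrial HSPD1 at 638, 778 and 669.5 against 518, 486 and 467 CPM.

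Of 22 tested targets of NRF2, a transcription factor of the oxidant response, 8 were lower and 4 higher. The median of -0.16 was -0.02 without treated parental replicate 2 and -0.09 without treated SDS22-degron replicate 1. Between the untreated lines the median was -0.21, with 9 called lower and 2 higher, and the interaction called 2 higher and 1 lower. PRDX1, a peroxide-reducing enzyme, was at 772, 829.6 and 793 against 513, 531 and 523 CPM (interaction -0.37). Of 6 tested metallothioneins, which bind zinc and copper, 4 were lower and 1 higher. MT2A was at 234, 222 and 209.6 against 105, 99.97 and 109.8 CPM and MT1E at 126, 118 and 106 against 56.4, 56.0 and 53.5 CPM; both lie on chromosome 16, whose genes had a negative median (given with the chromosomes), and have similar copies between which reads can be split. Of 8 tested targets of the aryl hydrocarbon receptor, a sensor that indoles can bind, CYP1B1 and AHRR were the 2 called. Both were higher, and this share of 25% is near the 21.8% of all tested genes called higher. The list median was 0.12. CYP1B1 was at 12.1, 13.4 and 11.6 CPM in treated parental and 29.5, 25.6 and 27.6 CPM in treated SDS22-degron cells, against 2.19, 3.99 and 3.54 and 4.59, 4.47 and 3.49 CPM without Dox/IAA, so that both lines were above their untreated levels.

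Genes of antiviral defence and antigen presentation were mostly higher. Of 35 tested interferon-stimulated genes 22 were higher (62.9%, against 21.8% of all tested genes) and 2 lower (5.71%, against 23.1%), with a median of 0.57 between the treated and 0.04 between the untreated lines. IFI6, an interferon-induced mitochondrial protein, was at 21.8, 13.8 and 22.9 CPM in treated parental and 54.9, 45.4 and 46.04 CPM in treated SDS22-degron cells (2.498-fold higher, adjusted p = 3.22e-07) and at 9.96, 9.07 and 10.1 and 10.5, 9.70 and 9.87 CPM without treatment. Both treated groups were above all untreated libraries, and treated SDS22-degron cells above all others. IFIT1, which binds foreign RNA, was at 9.30, 9.16 and 9.68 against 28.5, 21.9 and 25.5 CPM with and at 4.39, 6.10 and 5.03 against 10.5, 10.2 and 10.9 CPM without treatment. OAS3, which senses double-stranded RNA, was lower at 113, 136 and 121 against 89.3, 70.9 and 79.8 CPM. An ISRE, written GAAA, any 2 bases and GAAA, was in 17 of 26 promoters of these genes (65.4%) and in 2.65% of all promoters, and in the printed ones IFIT1 holds 2 and IFI6 holds 3.

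Of 15 tested genes of MHC class I and peptide loading 10 were higher and 1 lower (median 0.51). HLA-B was at 227, 182 and 225 against 488, 476 and 508 CPM and HLA-C at 437, 351 and 423 against 728, 695 and 759.6 CPM, and TAP1, a peptide transporter, at 64.3, 63.8 and 67.7 against 104, 107 and 106 CPM. All 10 tested genes of MHC class II of 13 listed were higher, 8 past the DEG cut-off, with a median of 1.62, and the same median was 1.52 between the untreated lines, where 8 were called. The class II list summed to 23.5 to 29.9 CPM in treated parental and 61.7 to 72.4 CPM in treated SDS22-degron libraries, and none of its members was called by the interaction. HLA-DRA was at 5.32, 4.74 and 6.53 against 13.7, 18.6 and 18.3 CPM, HLA-DRB1 at 3.599, 2.77 and 3.15 against 9.30, 10.7 and 11.3 CPM and HLA-DQB1 at 4.42, 2.92 and 3.07 against 9.84, 10.5 and 11.7 CPM. HLA genes are alike and variable, so counts of a single HLA gene are uncertain. Of 15 tested NF-kB targets and chemokines 10 were higher and 1 lower (median 0.38 treated, 0.35 untreated), among them TNIP1, at 52.1, 45.0 and 49.9 against 81.2, 84.1 and 95.4 CPM, and TNFAIP3 (A20), at 1.65, 4.42 and 2.75 against 6.79, 6.58 and 5.68 CPM, both brakes on this pathway.

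**Figure D4:**
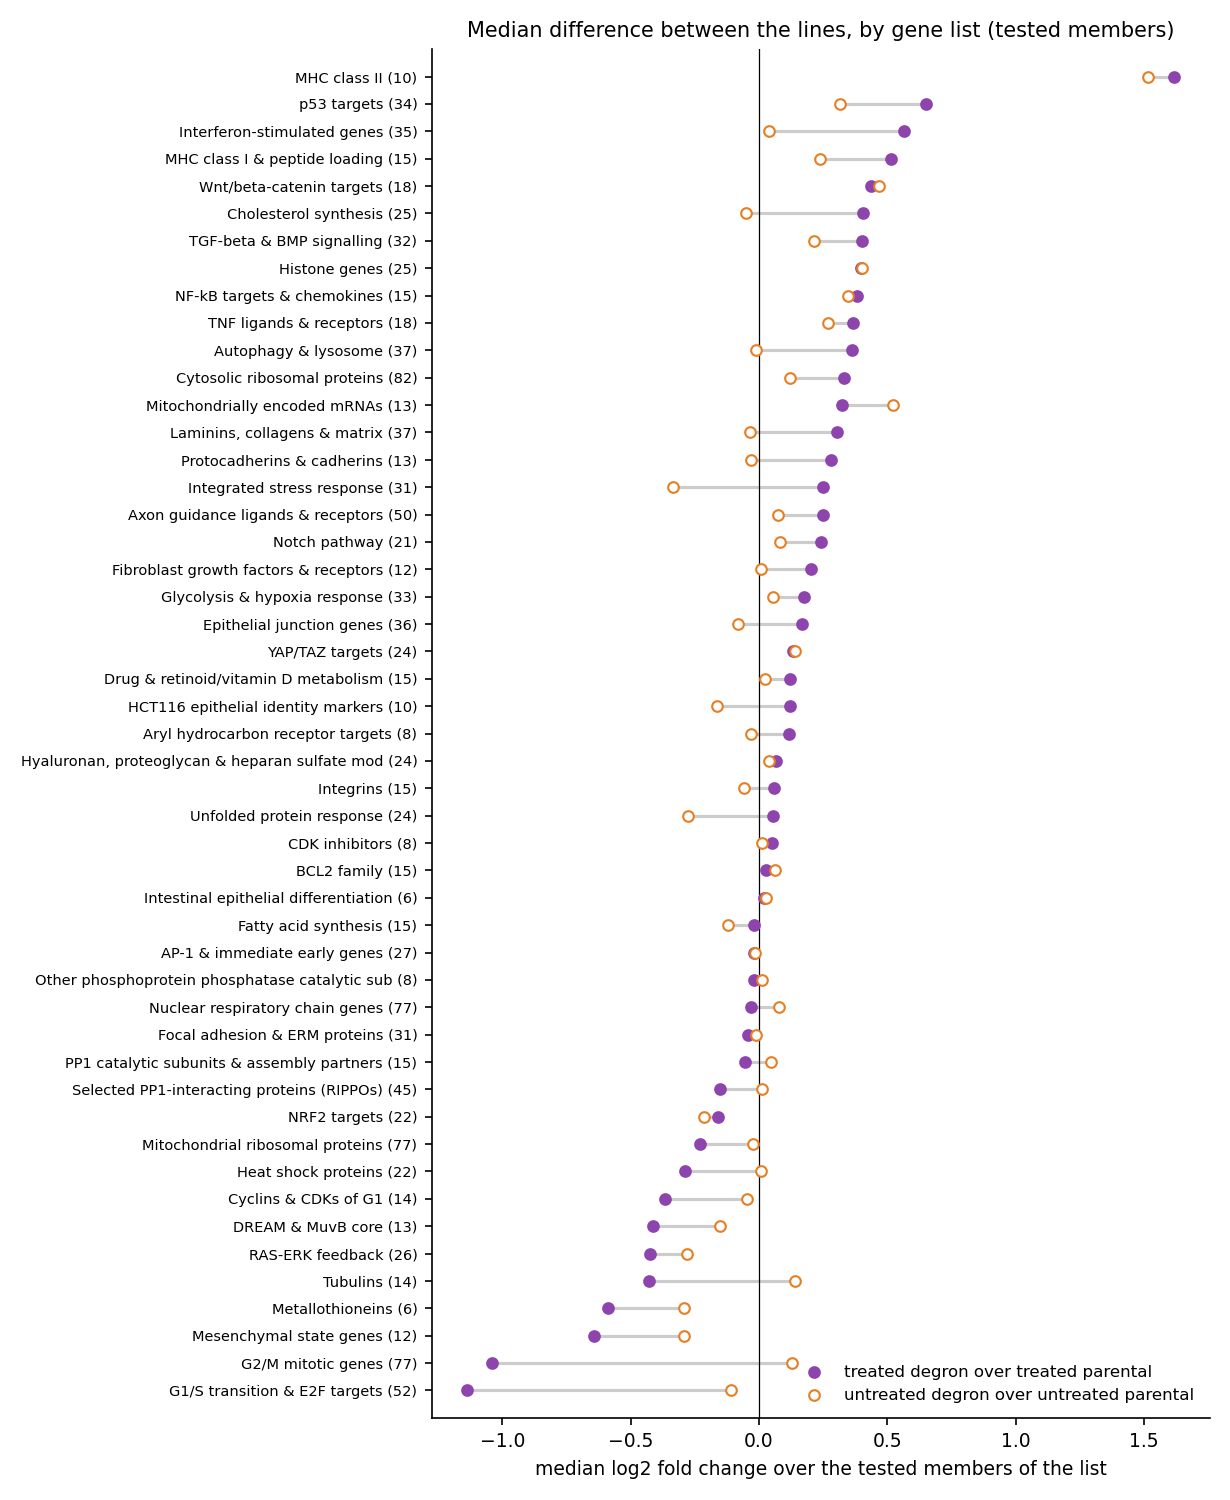
Median log2 fold change over the tested members (number in brackets) of each list with at least 5 tested members, between the treated lines (filled) and between the untreated lines (open). The G1/S and G2/M lists are lowest between the treated lines at -1.14 and -1.04 and lie at -0.11 and 0.13 between the untreated lines, whereas MHC class II is at 1.62 and 1.52.

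Attachment genes were looked at because the study examined whether cells re-attach after division. Of 15 tested integrins 4 were higher and 4 lower (26.7% each), near the 21.8% and 23.1% of all tested genes. ITGB8 was at 11.5, 3.24 and 9.60 against 23.9, 20.1 and 28.4 CPM, ITGA6, a laminin receptor, at 210.5, 219.9 and 213 against 169, 179.6 and 187 CPM, and ITGAX at 3.75, 4.35 and 3.78 against 1.07, 1.86 and 0.824 CPM. Of 31 genes of focal adhesions and of the ezrin, radixin and moesin group 10 were lower (32.3%) and 7 higher (22.6%), and 4 were higher without treated parental replicate 1 or 2 or treated SDS22-degron replicate 3. TNS4 was at 108, 108 and 139 against 44.1, 54.7 and 49.3 CPM and FERMT1, the kindlin of epithelia that activates integrins, at 96.6, 89.2 and 95.5 against 49.7, 51.0 and 42.7 CPM. PXN, paxillin, was at 428, 408 and 408 against 265, 292 and 290.0 CPM, and TNS3 was higher at 28.3, 27.5 and 35.8 against 59.3, 56.6 and 60.9 CPM. PXN and TNS3 also differed without treatment, by -0.51 ± 0.07 and 0.76 ± 0.10 SE.

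Of 37 tested laminins, collagens and other matrix genes 18 were higher and 8 lower (median 0.31, or 0.20 without treated SDS22-degron replicate 2). LAMC1, a laminin chain of basement membranes, was at 197, 189.8 and 191 against 119, 126 and 117 CPM, whereas COL6A2 was higher, at 167, 140.2 and 164 against 233, 239 and 247 CPM, with no call without treatment (0.01 ± 0.07 SE). SPARC, a collagen-binding protein, was at 0.300, 0.790 and 1.02 against 7.63, 5.88 and 7.25 CPM with and 6.33, 7.19 and 11.6 against 26.6, 23.2 and 19.7 CPM without treatment. Of 36 tested epithelial junction genes 18 were higher and 2 lower. CDH1, E-cadherin, was at 132, 91.6 and 117 against 181, 193 and 194 CPM. Of 12 tested genes of the mesenchymal state 7 were lower and 4 higher (median -0.64). NT5E (CD73) was at 120.5, 125 and 98.7 against 49.6, 56.1 and 49.7 CPM and AXL, a receptor tyrosine kinase, at 109, 97.8 and 96.4 against 58.2, 67.1 and 61.4 CPM. FN1, fibronectin, was higher, at 12.2, 11.7 and 12.98 against 22.7, 27.2 and 25.4 CPM.

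Some signalling lists had more genes higher and others more genes lower. Of 32 tested TGF-beta and BMP genes 22 were higher and 2 lower (median 0.40 treated, 0.22 untreated). BMP4, a BMP ligand, was at 68.2, 77.7 and 101 against 333, 305 and 424 CPM, and the inhibitory SMAD6 at 7.42, 9.64 and 8.50 against 22.9, 29.3 and 31.4 CPM, SMAD7 at 4.05, 8.77 and 5.51 against 23.3, 26.4 and 23.6 CPM and ID2, a direct BMP target, at 124, 132 and 131 against 262, 248.8 and 251 CPM. BMP4, SMAD7 and ID2 were also higher without treatment (2.12 ± 0.17, 1.56 ± 0.20 and 1.146 ± 0.06 SE) with no call in the interaction, while SMAD6 had the larger difference with it (interaction 0.98 ± 0.18 SE, adjusted p = 0.00153). Of 18 tested Wnt/beta-catenin targets 10 were higher and 1 lower. DKK1, a secreted Wnt antagonist, was at 153, 181 and 211 against 583, 521 and 589.4 CPM with and 121, 121 and 141 against 635, 621 and 633 CPM without treatment, a smaller difference when treated (interaction -0.67 ± 0.13 SE). AXIN2, a feedback inhibitor, was at 15.6, 20.5 and 19.2 against 27.9, 32.8 and 34.9 CPM. Of 26 genes of RAS-ERK signalling and its feedback 13 were lower and 6 higher (median -0.42 treated, -0.28 untreated). Between the untreated lines 11 were called lower and 5 higher, and the interaction called 5 higher and 2 lower. EREG, an EGF receptor ligand and 1 of those 2, was 2.63-fold lower, at 1050.3, 888 and 1188 against 375, 388 and 426 CPM. Of 27 AP-1 and immediate early genes 7 were higher and 7 lower (25.9% each), near the shares over all tested genes, or 11 lower with the replicate number as a block in the 6 treated libraries, 4 without treated parental replicate 3 and 3 without treated SDS22-degron replicate 2. FOSL1 was at 137, 129 and 122 against 75.4, 65.5 and 73.1 CPM and KLF10 at 148, 140.1 and 156 against 73.4, 67.7 and 64.7 CPM. Of 24 tested YAP/TAZ targets 11 were higher and 6 lower (median 0.13, or 0.22 without treated parental replicate 3 and 0.23 without treated SDS22-degron replicate 2), and F3, tissue factor, was at 35.7, 36.8 and 32.1 against 53.5, 53.4 and 55.8 CPM with and 35.4, 39.1 and 36.1 against 90.7, 97.4 and 105 CPM without treatment.

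Genes of translation in the cytosol and in mitochondria went opposite ways. Of 82 tested cytosolic ribosomal protein genes 52 were higher and 1 lower with a median of 0.33, and of 77 mitochondrial ribosomal protein genes 39 were lower and 3 higher with a median of -0.23. The cytosolic list summed to 22678 to 27807 CPM in treated parental and 29054 to 32679 CPM in treated SDS22-degron libraries. RPS19, which has processed copies that can share its reads, was at 406, 329 and 375 against 614, 596 and 537 CPM, and MRPL24 was 1.79-fold lower (-0.84 ± 0.09 SE). Of the 13 mRNAs made in mitochondria 6 were higher and 1 lower (median 0.32, or 0.21 without treated SDS22-degron replicate 3). Between the untreated lines their median was 0.52, with 10 called higher and 0 lower, and the interaction called 0 higher and 1 lower. MT-CO1, a subunit of cytochrome oxidase, was at 4913, 4227 and 3906 against 7736, 9576 and 10295 CPM, and MT-ND6, the one mRNA of the other strand, at 216, 356 and 208 against 60.3, 69.1 and 88.9 CPM. Whether the reads were counted by strand is not given in the sources used here, which bears on MT-ND6 and on genes that overlap another. Of 77 tested nuclear genes of the respiratory chain 14 were lower (18.2%) and 6 higher (7.79%), no more than over all tested genes. With the replicate block and GC correction together 22 were lower and 10 higher.

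In metabolism, 12 of 25 cholesterol synthesis genes were higher and 1 lower, with a median of 0.40 treated and -0.05 untreated; 7 were higher without treated parental replicate 2 and 5 without treated SDS22-degron replicate 3, where the median was 0.17. MSMO1 was at 111, 83.2 and 111 against 184, 131 and 241 CPM and TM7SF2 at 62.8, 45.7 and 65.4 against 88.0, 92.6 and 106 CPM, both sterol-modifying enzymes. Of 15 tested fatty acid synthesis genes 2 were higher (13.3%) and 3 lower (20%), no more than over all tested genes. Without treated SDS22-degron replicate 3 the number lower was 5. Of 33 tested genes of glycolysis and the hypoxia response 13 were higher and 10 lower, and the glycolytic enzymes LDHA, at 521, 636 and 549 against 356, 323 and 338 CPM, and ENO1, at 1682, 1631 and 1608 against 1166, 1038 and 1170.2 CPM, were lower. Of 37 tested autophagy and lysosome genes 23 were higher and 5 lower (median 0.36 treated, -0.01 untreated), and 2 were lower without treated parental replicate 2 or treated SDS22-degron replicate 3 and 3 without treated parental replicate 3 or treated SDS22-degron replicate 2. WIPI1, of early autophagosomes, was at 19.3, 21.1 and 18.5 against 48.2, 56.2 and 58.5 CPM, and LAMP2, a lysosomal membrane protein, at 84.0, 92.6 and 87.6 against 126, 125 and 129 CPM.

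The mRNAs of PP1 itself differed little. Of the 3 catalytic isoforms, PPP1CA was at 272, 258 and 257 against 255, 254 and 248 CPM (log2 fold change -0.05 ± 0.06 SE, adjusted p = 0.487) and PPP1CB at 132, 148 and 132 against 130.2, 124 and 121 CPM (-0.14 ± 0.10 SE, adjusted p = 0.303). Neither passed the test. PPP1CC was at 279, 305 and 284 against 258, 253 and 241 CPM (-0.21 ± 0.08 SE, adjusted p = 0.041), a call that was lost under 2 other scalings and when any 1 of 5 libraries was left out, among them treated parental replicate 2 (log2 fold change -0.15, adjusted p = 0.17). Of the 15 catalytic subunit and assembly genes 3 were lower (20%) and 2 higher (13.3%), no more than over all tested genes. PPP1R10 (PNUTS), a nuclear RIPPO of transcription, had the widest difference, at 189, 177 and 187 against 83.4, 104 and 93.1 CPM with and 163, 163 and 191 against 123, 123 and 131 CPM without treatment (interaction -0.52 ± 0.11 SE, adjusted p = 0.0046); it overlaps MRPS18B. PPP1R8 (NIPP1), which binds PP1 in the nucleus, was at 85.2, 78.1 and 72.5 against 70.3, 62.5 and 60.2 CPM and also lower without treatment (-0.33 ± 0.07 SE). SHOC2, a leucine-rich partner of PP1 in RAS-ERK signalling, was at 79.8, 72.6 and 80.3 against 100.5, 83.7 and 93.6 CPM, and UBXN2B, a p97 adapter, at 73.2, 78.9 and 76.5 against 87.1, 89.0 and 88.0 CPM; the call of SHOC2 was lost without treated parental replicate 2 or treated SDS22-degron replicate 1 or 3, and that of UBXN2B with no filter on low counts and when any 1 of 4 libraries was left out. Of 45 tested RIPPOs of 53 listed 21 were lower (against 23.1% of all tested genes) and 11 higher (median -0.15, or -0.08 without treated parental replicate 2), and of 8 tested catalytic subunits of the other PPP phosphatases 3 were lower and none higher.

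Position on the chromosome went with a part of the differences. Genes of chromosome 16 had a median log2 fold change of -0.31 between the treated lines, with 49.5% of 726 tested genes called lower. Those of chromosome 3 had -0.26, with 44.4% of 939. Over all tested genes 23.1% were called lower. Over the other autosomes and X the medians lay between -0.13 (chromosome 8) and 0.11 (chromosome 14). On chromosomes 1, 8 and 15 the shares called lower were 32.9%, 30.9% and 27.8%, also above that of all tested genes. Chromosomes 16 and 3 were low between the untreated lines too, at -0.30 and -0.27, and their interaction medians were -0.02 and 0.01. The untreated medians of chromosomes 1, 8 and 15 were -0.13, -0.11 and -0.10. For the genes named above that lie on chromosomes 16 and 3, among them PLK1, CDT1, E2F4, PKMYT1, MT2A, MT1E and MANF, the part of that shift in their difference was not tested. The same holds for named genes on chromosomes 1, 8 and 15.

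**Figure D5:**
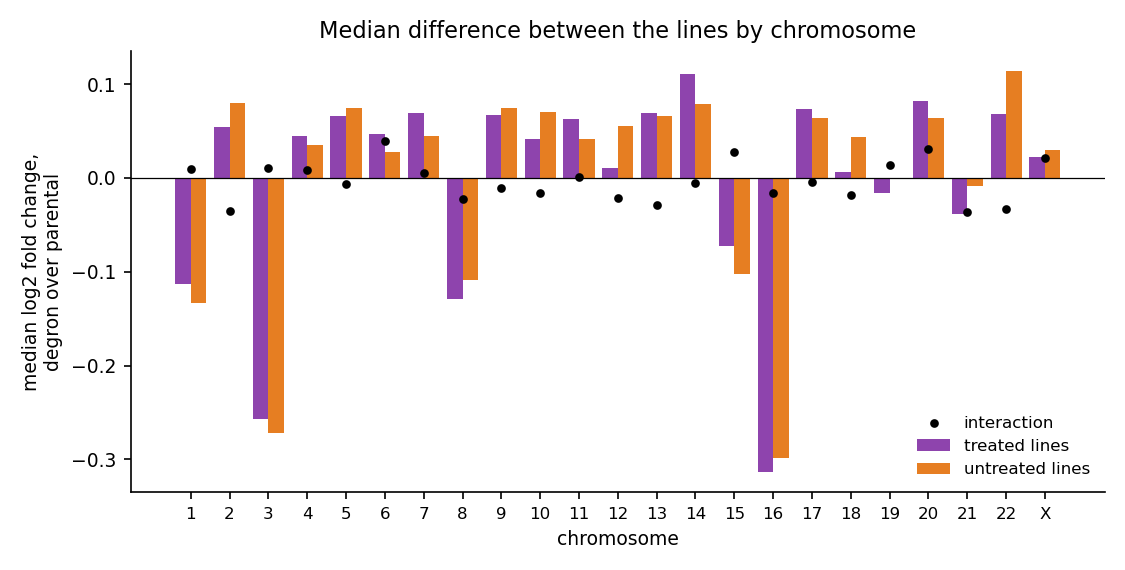
Bars are the median log2 fold change of the tested genes of each autosome and of X (mitochondrial genes are not drawn), degron over parental, between the treated lines (purple) and between the untreated lines (orange), and black points the median of the interaction. Chromosomes 16 and 3 are lowest in both, at -0.31 and -0.26 with treatment, and no interaction median drawn is beyond 0.04 in size.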

How the data were processed

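RNA was sequenced from 12 HCT116 libraries, 3 for each of 4 groups (parental or SDS22-degron, untreated or treated with Dox/IAA). The table deposited by the authors gives, for each gene, unnormalised counts per library and, as annotation, the length and the percent of G and C, which was used in the GC correction alone. The submitters' processing notes name cutadapt 1.15, Bowtie2 2.3.3.1, STAR 2.5.2b, SAMtools 1.5, featureCounts 1.5.3 and GRCh38; the strand setting of the counting is not given in the sources used here, and libraries were poly-A selected. The members and gene lists were chosen with earlier results of these data known.

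Genes passing filterByExpr (minimum count 10) were fitted with TMM scaling and 1 mean per group over all 12 libraries, which therefore share an estimate of the spread, by the edgeR quasi-likelihood test (edgeR 4.0.16, R 4.3.3), with Benjamini-Hochberg adjustment over the 16657 tested genes. Contrasts were degron against parental with treatment, without, and their difference (interaction). The filter leaves out weakly expressed genes, and small differences of abundant genes pass more easily than those of rare ones. Levels are CPM on TMM-scaled totals, and values after ± are SE. The fit was tested on simulated data.

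Genes were named by rule: with a named symbol, at least 5 CPM over the treated libraries, adjusted p under 0.05 and no overlap, (a) the 10 highest and 10 lowest; (b) with an untreated log2 fold change under 0.25 in size and an interaction call, the 8 highest and 8 lowest; (c) with the opposite untreated direction, the 3 highest and 3 lowest; and (d) the 4 members of each list with the smallest p; (e) PPP1R7 and the PP1 isoforms. Not all of these are reported here.

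The replicate numbers come from the labels. Deviations from the group means correlated between treated libraries of the same number (0.144, 0.186 and 0.348) and between untreated ones (0.177, 0.334 and 0.428), so the numbers were taken to pair the lines. Between treated and untreated libraries of the same number the values ran from -0.0793 to 0.631, some of them below 0. The main fit did not use this pairing. DESeq2 1.42.0, other scalings and filters, the replicate block, GC correction and leaving out single libraries were alternatives. Read counts on a gene limit the precision, and p-values measure the spread between these replicates.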

Additional observations from a re-analysis of the deposited data

Results flagged for a closer look

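For 91 of the named genes the difference between the lines itself differed between treated and untreated cells, by the interaction at an adjusted p under 0.05 over all genes. Over all tested genes the interaction called 14.4%. Rule (b) for naming genes asked for that call and rule (c) for opposite directions, so the number 91 is partly set by the choice. The values are the log2 difference of degron over parental with treatment minus that without, and treated libraries enter them as they enter the comparison above.

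Some genes had a fitted difference below 0 in both conditions and the larger difference with treatment. The interaction was -1.81 for E2F8, -1.58 for CDC20P1, -1.42 for MYBL2, -1.40 for CDC20, -1.36 for DSCC1, -1.33 for PLK1, -1.31 for MT-ND6, -1.303 for PKMYT1 and -1.28 for CENPF. It was -1.22 for NAV3, -1.19 for PRC1, -1.08 for TMPOP2, -1.04 for ATAD2, -0.96 for CCNE2, -0.89 for TUBB, -0.86 for TNS4, -0.73 for CDK2 and -0.71 for H2AFZ in further genes of this kind. Smaller values were -0.65 for CDT1, -0.58 for FOSL1, -0.53 for NT5E, -0.53 for EREG, -0.52 for PPP1R10, -0.49 for MRPL24, -0.48 for AXL, -0.44 for CDK4 and -0.41 for KLF10. The ones nearest to 0 were -0.40 for MT1E, -0.37 for PRDX1, -0.36 for HSP90AB1, -0.34 for MT2A, -0.33 for FERMT1 and -0.32 for ENO1.

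Other genes had a fitted difference above 0 in both conditions and the larger difference with treatment. The interaction was 1.86 for TNFSF18, 1.82 for SPARC, 1.54 for ARRDC4, 1.44 for BBC3, 1.27 for IFI6, 1.20 for ATF3, 1.19 for GDF15, 1.12 for TOM1L2 and 1.08 for HRK. Next came 1.07 for SULF2, 0.99 for YPEL3, 0.98 for SMAD6, 0.90 for TP53INP1, 0.82 for MSMO1, 0.81 for NTN4, 0.79 for CYP1B1, 0.70 for EPHA4 and 0.66 for PHLDA3. Below these were 0.65 for CDKN1A, 0.64 for CDH1, 0.63 for HLA-C, 0.63 for ALDH1A3, 0.62 for TNFRSF10C, 0.60 for COL6A2, 0.55 for TNFRSF10B, 0.55 for WIPI1 and 0.55 for AHRR. The smallest were 0.51 for TM7SF2, 0.51 for HLA-B, 0.47 for TNIP1, 0.47 for GPC4, 0.45 for LAMP2, 0.38 for RPS19 and 0.29 for NOTCH1.

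In further genes the fitted difference had the opposite sign without treatment, although most of these untreated differences did not pass the test. Negative interactions were -1.76 for NRGN, -1.71 for ARHGEF39, -1.66 for GINS4, -1.63 for B4GALNT1, -1.51 for XRCC2, -1.42 for BUB1, -1.38 for MKI67, -1.32 for KNSTRN and -1.300 for CDKN3. Others on this side were -1.17 for FOXM1, -1.08 for TUBA1B, -0.79 for OAS3, -0.76 for LDHA and -0.53 for HSPD1. Positive interactions were 1.66 for MEF2C, 1.65 for SELENOP, 1.41 for SAMD11, 1.38 for ERV3-1, 1.302 for SLFN5 and 0.69 for FGFR3.

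A smaller difference with treatment than without was measured in the remaining genes. The interaction was 1.13 for SH3BGRL, -0.77 for F3, -0.67 for DKK1 and 0.49 for PHGDH.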

How the results depend on the processing

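No result changed direction with a call. Of 144 named genes (the markers COL1A1 and VWF not counted) 141 were called between the treated lines and 137 under all alternatives. PPP1CC, UBXN2B, SHOC2 and CDKN3 were lost under some. Since most were named for a small p in this same comparison, the share called follows largely from the choice of the named genes. Between the untreated lines 75 of 94 called genes, and in the interaction 70 of 91, kept their call throughout. Counts at the adjusted p ranged from 3109 to 3409 higher and 3312 to 3563 lower when single libraries were left out, and DESeq2 gave 3464 and 3484. With the replicate number as a block over all 12 libraries they were 3902 higher and 4123 lower (544 and 559 DEGs). The block in the 6 treated libraries alone, chosen after seeing the data, gave 3829 and 3724 (519 and 476 DEGs), and no named gene between the treated lines lost its call under either block.

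With no filter on low counts, the genes past the DEG cut-off were 886 higher between the treated lines, 758 higher and 443 lower between the untreated lines, and 383 higher and 636 lower in the interaction. A test against the fold itself (glmTreat) left 140 higher and 94 lower. The share of DEGs also past the cut-off without treatment was 26.5% with no filter, 29.9% with only the groups compared, and 29.6% to 36.8% without single libraries. Upper quartile scaling moved the medians of G1 cyclins and CDKs to -0.33, of PP1 assembly genes to -0.0221 and of RIPPOs to -0.12. GC correction moved autophagy and lysosome genes to 0.32, with or without the replicate block, and histone genes were at 0.17 with a 1 CPM filter, 0.31 with only the groups compared and 0.31 with the block in the 6 treated libraries.

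Without single libraries, medians ranged from -0.41 to -0.28 for G1 cyclins and CDKs, -0.0459 to 0.13 for CDK inhibitors, -0.37 to -0.14 for heat shock proteins, -0.21 to -0.0180 for NRF2 targets, 0.30 to 0.41 for NF-kB targets, 0.43 to 0.57 for interferon-stimulated genes and 0.50 to 0.61 for MHC class I. They ranged from 0.29 to 0.44 for TNF genes, -0.00795 to 0.0995 for the BCL2 family, -0.0883 to -0.0236 for focal adhesion genes, 0.20 to 0.35 for matrix genes, -0.68 to -0.51 for mesenchymal genes and 0.20 to 0.32 for cadherins. For glycolysis and hypoxia genes the range was 0.13 to 0.24, for YAP/TAZ targets 0.11 to 0.23, for fibroblast growth factors 0.11 to 0.21, for PP1 assembly genes -0.0592 to -0.0180, for RIPPOs -0.18 to -0.0778 and for other PPP subunits -0.0527 to 0.0217. It was 0.30 to 0.36 for autophagy genes, 0.0846 to 0.24 for drug and retinoid metabolism and 0.14 to 0.45 for histones. The causes were not tested.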

Other observations

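Genes of cell guidance, retinoid metabolism and gut differentiation were measured beside the groups above. Of 50 tested axon guidance ligands and receptors 19 were higher and 6 lower in treated SDS22-degron cells, or 3 lower without treated parental replicate 3. NTN4, a netrin, was at 2.77, 2.21 and 3.78 against 12.1, 13.8 and 14.6 CPM, EPHA4, an ephrin receptor, at 9.90, 6.64 and 11.6 against 30.5, 32.9 and 38.7 CPM and PLXNA2, a semaphorin receptor, at 0.825, 1.42 and 0.787 against 6.56, 6.43 and 7.33 CPM. Of 24 tested genes of hyaluronan, proteoglycans and heparan sulfate 7 were higher (29.2%) and 2 lower (8.33%), against 21.8% and 23.1% of all tested genes. GPC4, a glypican, was at 40.0, 37.9 and 43.7 against 75.0, 73.7 and 79.9 CPM. Of 13 tested cadherins and protocadherins 6 were higher and 2 lower.

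Of 15 tested genes of drug, retinoid and vitamin D metabolism 7 were higher and 3 lower (median 0.12, or 0.24 without treated parental replicate 2), and their summed level ran from 1601 to 1919 CPM in treated parental and from 2509 to 3102 CPM in treated SDS22-degron libraries. ALDH1A3, which makes retinoic acid, was at 980.3, 859 and 1034 against 1764, 1953 and 2318 CPM and gave most of that sum. CYP24A1, which degrades vitamin D, was at 47.5, 62.3 and 83.5 against 12.5, 25.2 and 28.9 CPM with and 281, 229 and 326 against 57.2, 66.1 and 83.5 CPM without treatment, so that it was lower under Dox/IAA in both lines and lower in degron cells in both conditions. Of 6 tested genes of intestinal differentiation of 23 listed 3 were higher and 3 lower. In 21 tested Notch pathway genes 10 were higher and 1 lower, with NOTCH1 at 87.5, 80.7 and 88.7 against 109.7, 117 and 125 CPM, and in 12 tested fibroblast growth factor genes 5 were higher and 1 lower (median 0.20, or 0.11 without treated SDS22-degron replicate 3), with FGFR3 at 48.5, 46.8 and 58.1 against 73.4, 71.4 and 79.2 CPM.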
